A study of Mus musculus with 13 samples.

Results

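The 6 transcription factors of salivary duct cells and ionocytes that were followed in the mouse submandibular gland were Ascl3, Foxi1, Foxi2, Tfcp2l1, Esrrg and Esrrb. They were found by gene symbol, and all 6 were present among the 23364 genes listed for every sample. RNA was sequenced from whole submandibular glands of C57BL/6 mice in 13 samples at 6 time points, in order to follow gene expression from branching morphogenesis to the adult gland. The time points were E14.5 (3 samples, each a pool of glands from 3 animals), E16.5 and E18.5 (2 samples each, every sample a pool from 2 animals), P5 (2 samples), and 4wk and 12wk (2 samples each). For comparisons of stages, E14.5 to E18.5 formed the embryonic stage (7 samples), the 2 samples of P5 the neonatal stage, and the 4 samples of 4wk and 12wk the adult stage. The labels name no transgene and no treatment. The adult animals were male, while sex was not determined for the embryos or at P5, so that age and sex cannot be told apart in comparisons with the adult.

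Ionocytes are rare epithelial cells that move protons, chloride and bicarbonate by means of vacuolar ATPases, chloride channels and anion exchangers, and they share much of this machinery with the intercalated cells of the kidney. FOXI1, a forkhead factor, is known to govern the gene program of these cells in kidney, inner ear and airway, ASCL3 is a basic helix-loop-helix factor that marks ionocyte-like duct cells and progenitors in salivary gland, and TFCP2L1, of the CP2 and grainyhead family, is known in ducts of exocrine glands and in kidney collecting ducts. ESRRG and ESRRB are estrogen-related receptors, orphan nuclear receptors that bind DNA without a known natural ligand. ESRRG is linked to mitochondrial oxidative metabolism and ESRRB to pluripotent and placental stem cells and to ion-transporting epithelia of the inner ear.

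The factors differed in level by several orders of magnitude, and they followed different time courses. Tfcp2l1 was abundant throughout, at a mean of 27.9 FPKM (reads scaled to the length of the gene and to the depth of the sample, which allows levels of different genes to be compared per length) at E14.5 and 153 FPKM at P5. Ascl3 and Esrrg were below 1 FPKM at E14.5 and reached 24.9 and 34.6 FPKM at 4wk, whereas Foxi1 and Foxi2 stayed below 10 and 3 FPKM in all samples. Esrrb was at most 0.256 FPKM in any sample. Whole glands were sequenced, so that a change in the number of cells of a type and a change in RNA per cell cannot be told apart for any of these values.

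The promoter sequences of the 4 factors with a single RefSeq start are shown because Foxi1, Tfcp2l1 and Ascl3 could in principle bear sites for one another's families. Each sequence is the 250 bases before the start, from RefSeq (GRCm38.p6 table, in which all 6 factors had a match), given 5′ to 3′ on the strand of the gene and placed on mm9 by an exact match that occurred 1 time in the genome. Capitals mark matches, on either strand, to the forkhead core TAAACA, the estrogen-related receptor element AAGGTCA, the E-box CAGCTG, the CP2 pair (2 copies of CCAG with 6 bases between them) or the TATA box TATAAA. The windows are chr7:116875247-116875496 for Ascl3 and chr11:34108090-34108339 for Foxi1, both on the minus strand, and chr7:142601800-142602049 for Foxi2 and chr1:120524272-120524521 for Tfcp2l1, both on the plus strand.
Ascl3: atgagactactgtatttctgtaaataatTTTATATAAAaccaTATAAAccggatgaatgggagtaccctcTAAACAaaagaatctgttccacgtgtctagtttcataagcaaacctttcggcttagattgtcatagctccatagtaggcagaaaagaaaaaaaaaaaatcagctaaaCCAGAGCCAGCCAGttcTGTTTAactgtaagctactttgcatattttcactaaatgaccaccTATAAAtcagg
Foxi1: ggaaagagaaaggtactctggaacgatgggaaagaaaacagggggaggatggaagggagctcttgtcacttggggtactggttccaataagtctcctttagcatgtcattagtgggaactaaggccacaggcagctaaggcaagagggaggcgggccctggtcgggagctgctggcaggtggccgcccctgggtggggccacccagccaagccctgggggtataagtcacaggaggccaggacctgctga
Foxi2: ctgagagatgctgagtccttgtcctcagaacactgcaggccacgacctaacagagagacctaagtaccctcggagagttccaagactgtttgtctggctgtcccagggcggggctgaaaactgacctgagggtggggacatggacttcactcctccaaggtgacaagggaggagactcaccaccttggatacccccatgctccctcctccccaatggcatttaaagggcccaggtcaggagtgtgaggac
Tfcp2l1: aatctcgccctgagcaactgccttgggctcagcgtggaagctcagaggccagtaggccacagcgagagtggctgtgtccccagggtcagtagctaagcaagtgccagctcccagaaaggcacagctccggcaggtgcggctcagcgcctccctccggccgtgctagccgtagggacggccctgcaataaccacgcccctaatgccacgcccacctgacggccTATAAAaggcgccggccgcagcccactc

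The Ascl3 window held 7 matches. The forkhead core was found at -180 to -175 and, on the opposite strand, at -56 to -51 from the start, and it was present in 12.0% of all 32851 windows of this length. The CP2 pair lay between them, at -73 to -60, and occurred in 2.78% of windows. The other 4 matches were TATA boxes (12.4% of windows), of which the one nearest the start was at -11 to -6, and those on opposite strands at -222 to -217 and -218 to -213 overlapped. The Ascl3 window was also poor in G and C (34.8%), compared with 58.8% for Foxi1, 56.8% for Foxi2 and 65.2% for Tfcp2l1. The Tfcp2l1 window held 1 TATA box at -28 to -23, and the Foxi1 and Foxi2 windows held no match to these 5 motifs. In the 4 windows of Esrrg and the 2 of Esrrb, not shown, 1 TATA box was found for Esrrg and 1 E-box, which is present in 4271 of all windows, for Esrrb, whereas the receptor element, in 4.08% of all windows, was found for none of the factors. The CP2 pair was added as a motif with the Ascl3 sequence in view, and a match is a run of letters, not evidence of binding.

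The samples differed in depth and in composition. Reads on genes, recovered from the steps between FPKM values, ranged from 5817293 at 4wk to 48314162 at P5, and the 4wk samples, with 5817293 and 7957918 reads, were the shallowest. The 10 most abundant genes took from 5.93% of the summed FPKM in an E16.5 sample to 29.2% and 31.1% at P5 and up to 61.1% at 4wk. FPKM is scaled to the total of each sample. Over the 14650 tested genes, the median log2 difference was -0.25 from embryo to neonatal and -0.53 from neonatal to adult. From embryo to adult it was -0.75. Changes are therefore also given after division by median-of-ratios factors (rescaled), which brought these medians to -0.02, -0.04 and -0.05. Marker sums over lists of known genes moved with age as well. The 11 acinar markers summed to 47.3 to 489 FPKM at E14.5 and 127800 to 132000 FPKM at 4wk, the 5 granular duct markers to 10.9 to 21.5 FPKM at E14.5 and E16.5 and 44370 to 47010 FPKM at 12wk, with Ren1 at 0 before 12wk, and the 5 mesenchymal markers fell from 2335 to 2498 FPKM at E14.5 to 233 to 301 FPKM at 12wk. The part of these shifts in the results below was not tested.

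One library stood apart in a way that touches the factors. In E14.5 replicate 1 the acinar markers summed to 47.3 FPKM against 489 and 411 FPKM in the other E14.5 samples, and 4 duct keratins to 176 FPKM against 347 and 324 FPKM, whereas the 7 skeletal muscle markers (519 against 254 and 188 FPKM), 5 neuronal markers (98.0 against 61.6 and 58.7 FPKM) and 5 erythroid markers (3362 against 480 and 863 FPKM) were higher. Results that turn on this library are given with and without it.

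Ascl3, at chr7:116870979-116875246 on mm9 with 2 exon blocks, had 4 reads in all at E14.5 and was above both Foxi factors in every adult sample. Its level was 0, 0.223 and 0 FPKM at E14.5, 0.977 and 1.63 FPKM at E16.5, 1.63 and 2.58 FPKM at E18.5, 9.12 and 11.2 FPKM at P5, 21.2 and 28.7 FPKM at 4wk and 20.1 and 19.3 FPKM at 12wk. In the E14.5 samples without reads, 3 reads would have given 0.22 and 0.159 FPKM. No embryonic sample reached a P5 sample and no P5 sample reached an adult one. The mean was 22.2 times higher in adult than in embryo (41.6 times rescaled), with a log2 fold change of 3.68 ± 0.33 (SE, adjusted p = 3.8e-07, limma, here and below on log2(FPKM + 1) with Benjamini-Hochberg adjustment over all tested genes). Taken in steps, Ascl3 passed the thresholds (an adjusted p below 0.1 and a log2 fold change of 1 or more in either direction) from E14.5 to E16.5, where it rose by 1.09 ± 0.20 (adjusted p = 0.0048, limma), from E18.5 to P5, where it rose by 1.86 ± 0.22 (adjusted p = 0.00048, limma), and from P5 to 4wk, where it rose by 1.21 ± 0.22 (adjusted p = 0.00095, limma). The first and last of these steps were close to the fold threshold. From E14.5 to E16.5 the log2 fold change was 0.90 rescaled (3.65% of genes called higher) and 0.89 without E16.5 replicate 2, and from P5 to 4wk it was 1.00, just short of the threshold, without 4wk replicate 2.

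Foxi1, at chr11:34104338-34108089 with 2 exon blocks, had a higher mean than Ascl3 at E14.5 (0.676 against 0.0745 FPKM). At E14.5 it was listed at 0 in replicate 1 and at 1.14 and 0.890 FPKM (68 and 56 reads) in replicates 2 and 3, and then at 1.28 and 2.63 FPKM at E16.5, 2.52 and 2.36 FPKM at E18.5, 4.65 and 4.95 FPKM at P5, 8.18 and 6.35 FPKM at 4wk and 6.07 and 5.35 FPKM at 12wk. The sample without reads is the E14.5 library with few acinar and duct keratin transcripts, in which 3 reads would have given 0.0661 FPKM. Levels of E16.5 and E18.5 overlapped, and those of all other neighbouring time points did not. The adult mean was 4.20 times the embryonic one (7.95 times rescaled), a log2 fold change of 1.66 ± 0.30 (adjusted p = 0.00019, limma), but no single step between neighbouring time points passed the thresholds. The step from E14.5 to E16.5 gave 0.85 ± 0.30 (adjusted p = 0.071, limma), and 0.52 without either E14.5 replicate 1 or E16.5 replicate 2, and that from E18.5 to P5 gave 0.75 ± 0.33 (adjusted p = 0.13, limma). Rescaled, the step from P5 to 4wk passed as well, at 1.101 (adjusted p = 0.0082, limma), where 6.4% of all tested genes were called higher.

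Foxi2, a close relative of Foxi1 at chr7:142602050-142605298 with 2 exon blocks, was the lowest of the factors that were tested. It was listed at 0.0400, 0 and 0.0144 FPKM at E14.5, which is 3 reads in all, at 0.192 and 0.248 FPKM at E16.5, 0.801 and 0.416 FPKM at E18.5, 1.32 and 1.47 FPKM at P5, 1.66 and 2.18 FPKM at 4wk and 1.57 and 1.63 FPKM at 12wk. All 7 embryonic samples lay below both P5 samples, and these below all 4 adult samples. Foxi2 passed the filter on low values only through P5 and adult samples, the groups in which it was high, so that its test adds little to the values themselves. The log2 fold change from embryo to adult was 1.17 ± 0.17 (adjusted p = 2.1e-05, limma), and from embryo to neonatal 0.97 ± 0.21 (adjusted p = 0.0065, limma), short of the fold threshold. At such levels the added pseudocount of 1 FPKM compresses a fold change, and with a pseudocount of 0.1 the difference from embryo to neonatal was 2.54.

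Tfcp2l1, annotated as Tcfcp2l1 at chr1:120524522-120581744 with 15 exon blocks, was the most abundant factor at every time point and had the most reads behind it, from 2708 to 67035 per sample. Its level was 15.2, 34.9 and 33.7 FPKM at E14.5, 50.8 and 90.1 FPKM at E16.5, 95.2 and 75.6 FPKM at E18.5, 150 and 156 FPKM at P5, 126 and 115 FPKM at 4wk and 106 and 114 FPKM at 12wk. As deposited, the P5 samples were above all others, the adult samples came next, and E14.5 replicate 1 was the lowest. Rescaled, all adult samples (155.3 to 185.5 FPKM) lay above both P5 samples (137.4 and 151.0 FPKM). Tfcp2l1 rose from embryo to neonatal by 1.64 ± 0.51 (log2 fold change, adjusted p = 0.029, limma) and was higher in adult than in embryo by 1.24 ± 0.40 (adjusted p = 0.011, limma), which without E14.5 replicate 1 was 0.97 and below the fold threshold. Rescaled, the difference from embryo to adult was 2.17 over all samples (adjusted p = 0.00048, limma). From neonatal to adult the log2 difference was -0.41 ± 0.55 as deposited and 0.27 rescaled, so that its direction rests on the scaling, and neither passed (adjusted p = 0.56 and 0.77, limma). Among neighbouring time points, the step from E14.5 to E16.5 passed, at 1.34 ± 0.32 (adjusted p = 0.016, limma), and that from E18.5 to P5, whose samples did not overlap, gave 0.84 ± 0.35 (adjusted p = 0.12, limma). The first of these was 0.96 without E14.5 replicate 1 and 0.93 without E16.5 replicate 2, and lost its call when only these 2 time points were fitted (adjusted p = 0.12, limma).

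Esrrg, at chr1:189432670-190038764 with 12 exon blocks, rose in the embryo and again after P5. It was at 0.483, 0.664 and 0.670 FPKM at E14.5, 2.17 and 3.85 FPKM at E16.5, 6.62 and 4.36 FPKM at E18.5, 9.26 and 9.69 FPKM at P5, 34.9 and 34.4 FPKM at 4wk and 28.7 and 36.7 FPKM at 12wk. Samples of successive time points up to 4wk did not overlap, whereas the 2 adult ages did. The step from P5 to 4wk was 1.77 ± 0.22 (log2 fold change, adjusted p = 9.2e-05, limma) and 2.42 rescaled, and that from E14.5 to E16.5 was 1.29 ± 0.20 (adjusted p = 0.0019, limma), or 0.99 without E16.5 replicate 2. In the intervening steps Esrrg gave 0.70 ± 0.22 and 0.71 ± 0.22, which did not reach the fold threshold. The adult mean was 12.5 times the embryonic mean (23.6 times rescaled), with a log2 fold change of 3.49 ± 0.41 (adjusted p = 3.8e-06, limma).

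Esrrb, the relative of Esrrg at chr12:87702067-87862578 with 10 exon blocks, was at a level close to 0. It was listed at 0.0337, 0.256 and 0.210 FPKM at E14.5, 0.0895 and 0.139 FPKM at E16.5, 0.0250 and 0.0467 FPKM at E18.5, 0.0045 and 0 FPKM at P5, 0.0372 and 0 FPKM at 4wk and 0.0496 and 0.0152 FPKM at 12wk. Over all samples this was 107 reads in the 7 embryonic samples, 1 read at P5 and 8 reads in the 4 adult samples. The highest values were those of E14.5 replicates 2 and 3, and embryonic and adult samples overlapped. The means were 0.114 and 0.0255 FPKM in embryo and adult (exact permutation test over samples, two-sided, p = 0.079, where 0.00303 is the smallest p possible). Without E14.5 replicate 1 the embryonic mean was 0.128 FPKM (exact permutation test, p = 0.071). With each embryonic or adult sample left out in turn, an alternative added after seeing the data, p was 0.067 to 0.175. These values lie on both sides of 0.1, so that the difference is not settled. Esrrb did not reach 1 FPKM in any sample and was left out of the test across genes.

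**Figure D1:**
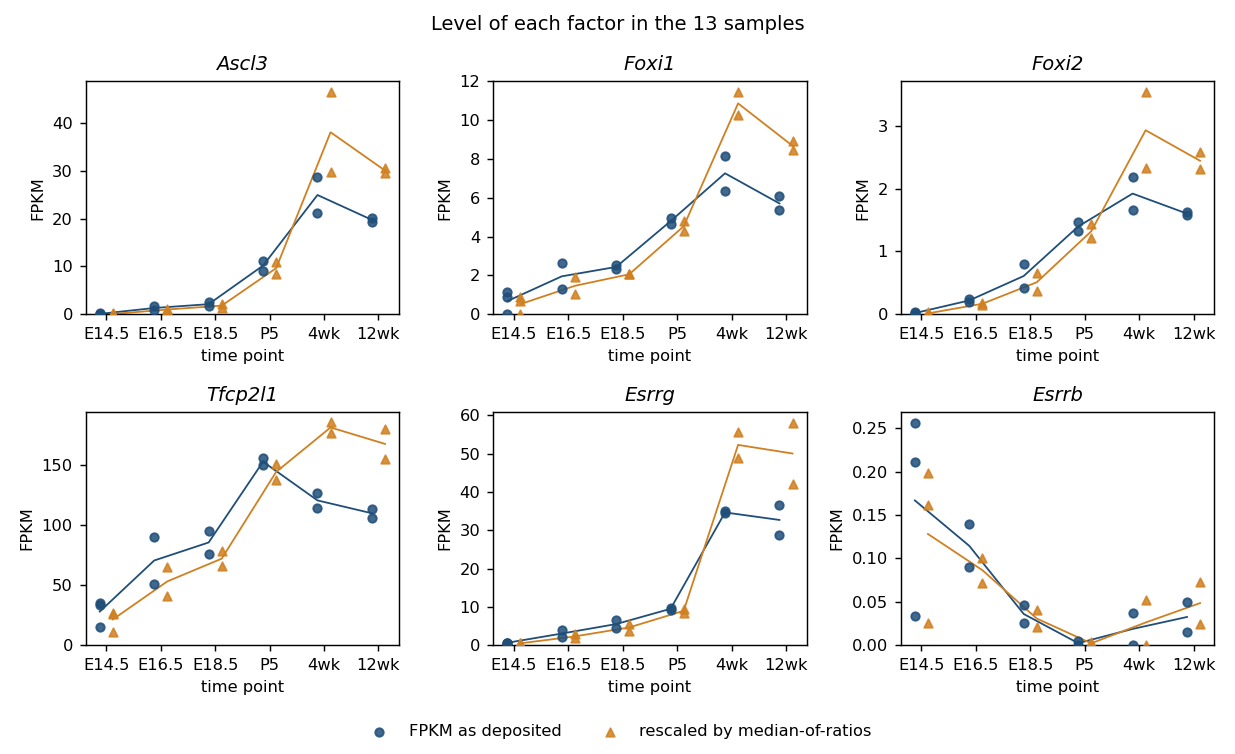
Level of each factor (FPKM, linear axis, a scale for each factor) against time point. Blue circles are the 13 samples as deposited and orange triangles the same samples after median-of-ratios rescaling, with lines through the time point means. Tfcp2l1 was highest at P5 as deposited and at 4wk when rescaled, Ascl3, Foxi1, Foxi2 and Esrrg were lowest at E14.5 and high in the adult on both scales, and Esrrb stayed below 0.3 FPKM.

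Set side by side, 4 of the 5 tested factors were higher at the neonatal than at the embryonic stage past both thresholds (Ascl3, Foxi1, Tfcp2l1 and Esrrg), where 4.14% of all tested genes were called higher. From neonatal to adult, Ascl3 and Esrrg passed (2.31% of genes called higher), by 1.05 ± 0.46 (adjusted p = 0.076, limma) and 1.72 ± 0.56 (adjusted p = 0.024, limma), while Foxi1 and Foxi2 gave 0.36 ± 0.41 and 0.20 ± 0.23. From embryo to adult Ascl3, Foxi1, Tfcp2l1 and Esrrg passed, where 5.58% of genes were called higher and 38.0% lower. Foxi2 passed as well, which carries no weight because it entered the test only through samples in which it was high. The same factors passed in these 3 comparisons when rescaled, where 5.57%, 6.07% and 13.8% of genes were called higher. With only 2 P5 samples, these calls depend on both of them. From embryo to neonatal, the calls of Foxi1, Tfcp2l1 and Esrrg were lost without either P5 sample (adjusted p of 0.15 to 0.18, limma), and from neonatal to adult those of Ascl3 and Esrrg were (adjusted p of 0.10 to 0.30, limma), the one of Ascl3 also without 4wk replicate 2 (adjusted p = 0.15, limma), although the log2 fold changes stayed between 0.92 and 1.80. With a pseudocount of 0.1, Foxi1 from embryo to neonatal (adjusted p = 0.11, limma) and Ascl3 from neonatal to adult (adjusted p = 0.44, limma) did not pass, nor did the latter without a filter on low values (adjusted p = 0.12, limma).

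Among neighbouring time points, 3 factors were called higher from E14.5 to E16.5 (Ascl3, Tfcp2l1 and Esrrg, with 4.17% of all genes called higher), none from E16.5 to E18.5 (1.09%), 1 from E18.5 to P5 (Ascl3, 2.07%), 2 from P5 to 4wk (Ascl3 and Esrrg, 2.19%) and none from 4wk to 12wk (2.68%). All 3 calls from E14.5 to E16.5 were lost without E16.5 replicate 2, in which each of these factors was higher than in replicate 1. In a test of any change over the 6 time points all 5 passed, as did 91.4% of genes. Ordered by level, Ascl3, Foxi1, Foxi2 and Esrrg ran from 4wk through 12wk, P5, E18.5 and E16.5 down to E14.5, and the only neighbours in this order that differed past the thresholds were P5 above E18.5 and E16.5 above E14.5 for Ascl3 and 12wk above P5 (1.68 ± 0.22, adjusted p = 9.7e-05, limma) and E16.5 above E14.5 for Esrrg. For Tfcp2l1 the order was P5, 4wk, 12wk, E18.5, E16.5 and E14.5, with only the last neighbours apart.

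**Figure D2:**
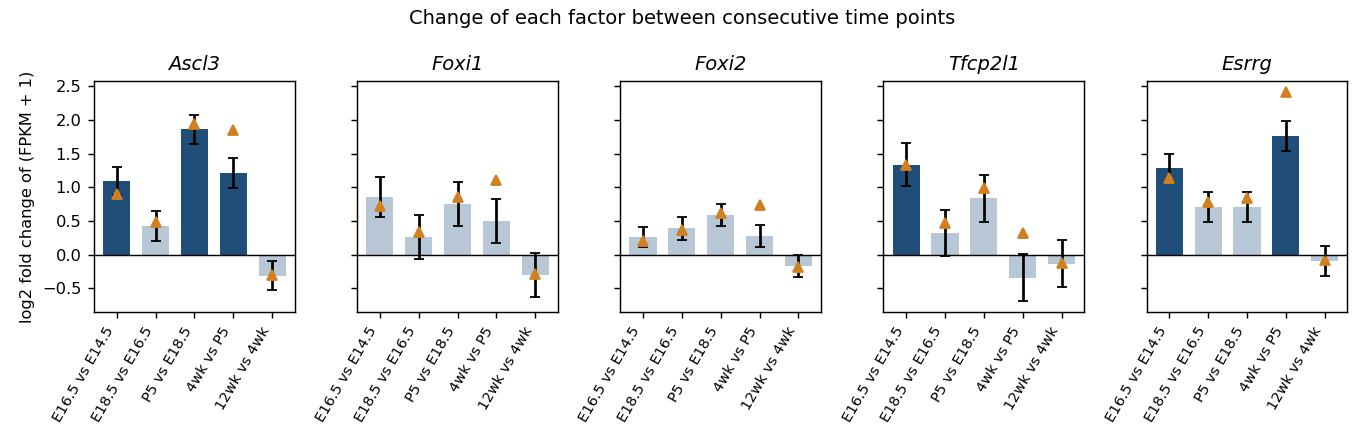
Log2 fold change of (FPKM + 1) between consecutive time points for the 5 tested factors, with standard errors as whiskers. Dark bars passed both thresholds, pale bars did not, and orange triangles are the rescaled values. Esrrg had its largest step from P5 to 4wk (1.77) and Ascl3 from E18.5 to P5 (1.86), and the Tfcp2l1 step from P5 to 4wk changed sign with rescaling, from -0.34 to 0.33.

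The share of the 12wk level that was already present at P5 differed between factors. As deposited, the P5 mean was 51.6% of the 12wk mean for Ascl3, 84.0% for Foxi1, 87.2% for Foxi2, 139% for Tfcp2l1 and 29.0% for Esrrg. Rescaled, the ratio of the P5 mean to the 12wk mean was 0.320, 0.522, 0.540, 0.861 and 0.179 in the same order. Tfcp2l1 was thus above its 12wk level at P5 only as deposited. These shares depend on the scaling, but ratios between factors within a sample do not. The ratio of Ascl3 to Foxi1 was 0.196 and 0 in the E14.5 samples with Foxi1 reads, 0.621 to 1.09 at E16.5 and E18.5, 1.96 and 2.27 at P5 and 2.59 to 4.51 in the adult, so that Foxi1 exceeded Ascl3 in all embryonic samples with reads for it but 1 and Ascl3 exceeded Foxi1 in all samples thereafter. The ratio of Foxi2 to Foxi1 was 0 and 0.0162 in the same E14.5 samples, 0.0944 to 0.318 at E16.5 and E18.5, and between 0.203 and 0.344 from P5 on. The ratio of Esrrg to Tfcp2l1 was 0.0190 to 0.0319 at E14.5, 0.0427 to 0.0695 at E16.5 and E18.5, 0.0619 and 0.0622 at P5 and 0.271 to 0.323 in the adult, with no overlap between the adult samples and any other.

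**Figure D3:**
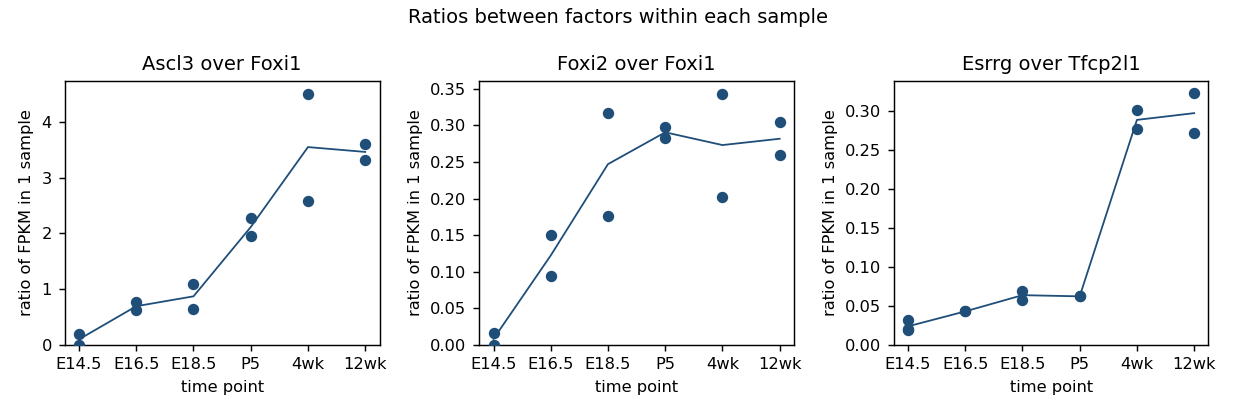
Ratio of the FPKM of 2 factors within each sample (linear axis from 0) against time point, with points for samples and lines through the means. E14.5 replicate 1 has no point in the panels over Foxi1, which had no reads there. The ratio of Esrrg to Tfcp2l1 lay at 0.0619 and 0.0622 at P5 and at 0.271 to 0.323 in the adult, whereas that of Foxi2 to Foxi1 overlapped between P5 and adult.

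Genes known as effectors of ionocytes and intercalated cells were examined as a group of 16, of which 12 were tested. From embryo to adult 8 were higher and 2 lower (9 and 1 rescaled), with a median log2 fold change of 1.64. From embryo to neonatal 5 were higher and 1 lower, and from neonatal to adult 3 were higher and 2 lower (6 and 1 rescaled). Over all genes, 8.14% were called lower from embryo to neonatal (3.91% rescaled), 20.8% from neonatal to adult (8.56% rescaled) and 38.0% from embryo to adult (14.7% rescaled), beside the shares called higher given above. Atp6v0d2, which encodes a membrane subunit of the vacuolar ATPase, rose most, by 4.32 ± 0.35 (log2 fold change, adjusted p = 1.5e-07, limma), from 0.0299 to 0.110 FPKM at E14.5 to 25.0 and 47.2 FPKM at 12wk. Slc4a1, the anion exchanger of intercalated cells and red cells, fell by 2.28 ± 0.27 (adjusted p = 4.6e-06, limma), having passed the filter only through embryonic samples, where it was high, and the erythroid marker sum ran from 480 to 3362 FPKM at E14.5 to 3.62 to 3.66 FPKM at 12wk. Moxd1, a monooxygenase-like gene, fell by 1.41 ± 0.19 (adjusted p = 1.5e-05, limma), but by 0.61 rescaled, which was not past the fold threshold. The anion exchanger Slc26a4 and the ammonia channel Rhcg, typical of intercalated cells, had means of at most 0.0278 FPKM at any time point.

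The vacuolar ATPase subunits of this group had different time courses. The subunits below, Cftr, Slc26a4 and Rhcg were picked out after their values were seen. Atp6v1b1, the subunit of the catalytic domain that is typical of intercalated cells, was at 0.915, 10.1 and 9.30 FPKM at E14.5, 21.5 and 32.8 FPKM at E16.5, 31.7 and 30.4 FPKM at E18.5, 34.3 and 45.3 FPKM at P5, 7.94 and 9.20 FPKM at 4wk and 6.28 and 5.48 FPKM at 12wk. It was thus lowest in E14.5 replicate 1 and low again in the adult, and the step from P5 to 4wk fell by 2.08 ± 0.63 (log2 fold change, adjusted p = 0.016, limma). Atp6v1c2 was 8.50 and 7.24 FPKM at 4wk against 0.861 and 0.639 FPKM at 12wk, and fell by 2.34 ± 0.25 between them (adjusted p = 0.00022, limma). In the same interval Atp6v1g3 rose by 2.02 ± 0.27 (adjusted p = 0.00083, limma), from 0 and 1.13 FPKM to 4.83 and 5.00 FPKM, a call that was lost when only these 2 ages were fitted (adjusted p = 0.16, limma). Cftr, the chloride channel for which airway ionocytes are best known, was at 0.782 to 1.27 FPKM at E14.5 and 7.55 and 7.50 FPKM at 4wk, and rose to 32.3 and 27.3 FPKM at 12wk by 1.85 ± 0.21 (adjusted p = 0.00027, limma). Between 4wk and 12wk none of the 5 tested factors passed the thresholds. In that interval 755 of all 14650 tested genes were called, so that none of 5 is near that share.

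**Figure D4:**
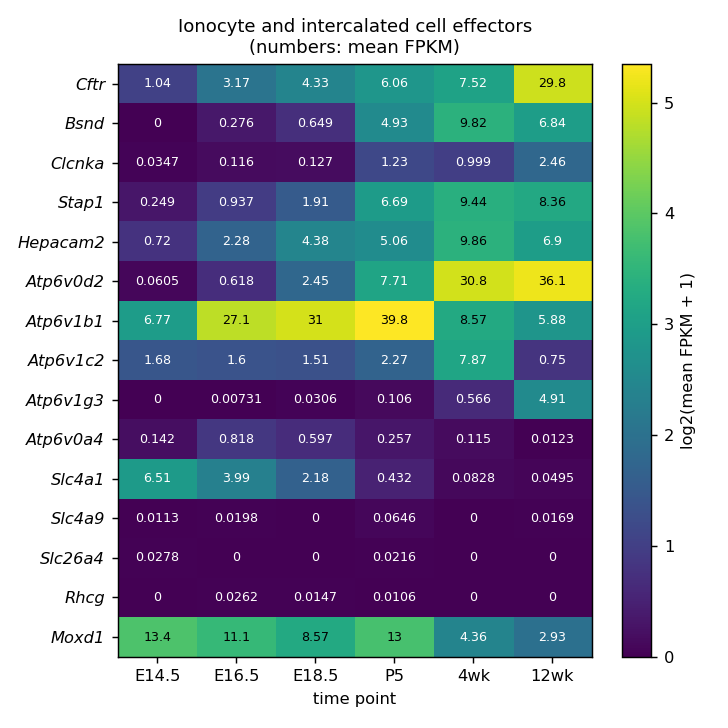
Mean FPKM of ionocyte and intercalated cell effectors at each time point, printed in each cell and coloured by log2(mean FPKM + 1). Atp6v0d2 and Bsnd were highest in the adult, Atp6v1b1 was highest at P5 (39.8 FPKM), and Cftr at 12wk (29.8 FPKM).

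Of 13 genes of duct ion transport and duct keratins, all tested, 9 were higher at the neonatal than at the embryonic stage and none lower, and from embryo to adult 6 were higher and 1 lower. The shares over all genes were 4.14% higher and 8.14% lower in the first comparison and 5.58% and 38.0% in the second. The epithelial sodium channel subunits Scnn1b and Scnn1a, which take up sodium in the ducts, rose from embryo to adult by 3.84 ± 0.31 (log2 fold change, adjusted p = 1.4e-07, limma) and 2.42 ± 0.35 (adjusted p = 2.9e-05, limma). Krt19, a keratin of ducts and embryonic epithelium, fell by 2.41 ± 0.48 (adjusted p = 0.00042, limma). From neonatal to adult 1 gene of the list was higher and 3 lower as deposited (2.31% and 20.8% of all genes), and 4 higher and none lower rescaled (6.07% and 8.56%).

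Relatives of the factors were counted in the same way. Of 11 related genes (other Ascl, Foxi, CP2 and grainyhead members and Esrra), 9 were tested, and from embryo to adult none was higher and 3 were lower, whereas rescaled 2 of 8 tested were higher and 1 lower. Over all genes 5.58% were higher and 38.0% lower (13.8% and 14.7% rescaled), so that these counts are read as near the background. Grhl3, a grainyhead factor of surface epithelium, fell by 1.68 ± 0.31 (log2 fold change, adjusted p = 0.00025, limma), but it passed the filter on low values only through embryonic samples, the group in which it was high. Tfcp2, the ubiquitous relative of Tfcp2l1, fell by 1.38 ± 0.20 (adjusted p = 3.0e-05, limma), but by 0.64 rescaled, under the fold threshold. Esrra, the widely expressed estrogen-related receptor, was singled out after its values were seen and differed by 0.61 ± 0.19 from embryo to adult (1.52 and past the thresholds rescaled). Within samples, the ratio of Esrrg to Esrra was 0.0405 to 0.0532 at E14.5, 0.110 to 0.352 at E16.5 and E18.5, 0.458 and 0.556 at P5 and 0.998 to 1.74 in the adult, where the levels of the 2 receptors were within 1.74 times of each other.

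Partners and oxidative targets of estrogen-related receptors were a list of 12 genes, of which 11 were listed and tested. From embryo to adult none passed in either direction as deposited, with a median log2 fold change of -0.14, while 4 were higher and none lower rescaled. The shares of all tested genes in that comparison were 5.58% higher and 38.0% lower as deposited, and 13.8% and 14.7% rescaled. From embryo to neonatal 3 were higher and none lower, and from neonatal to adult none was higher and 2 were lower (none and 1 rescaled). Over all genes, 4.14% were higher and 8.14% lower in the first of these comparisons and 2.31% higher and 20.8% lower (6.07% and 8.56% rescaled) in the second, so that the count of lower genes from neonatal to adult is near the background. Ppargc1a, the coactivator PGC-1alpha and a partner of these receptors, was singled out after its values were seen. It was at 5.35 and 3.63 FPKM at E18.5, 18.2 and 18.8 FPKM at P5, 6.91 and 7.24 FPKM at 4wk and 5.36 and 2.85 FPKM at 12wk, and its P5 samples were above all others. It rose from E18.5 to P5 by 1.85 ± 0.33 (log2 fold change, adjusted p = 0.0042, limma) and fell from P5 to 4wk by 1.27 ± 0.33 (adjusted p = 0.0068, limma), or by 0.66 rescaled, which did not pass (adjusted p = 0.10, limma). The 5 adipocyte markers, which include the brown fat genes Ucp1 and Cidea, summed to 14.7 and 51.2 FPKM at E18.5, 152 and 626 FPKM at P5, 10.6 and 363 FPKM at 4wk and 18.7 and 21.3 FPKM at 12wk, and their part in the Ppargc1a values was not tested. Ppargc1a thus fell as deposited, in the same step in which Esrrg rose by 1.77.

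The genes most like each factor in pattern were found by Pearson correlation of log2(FPKM + 1) over the 13 samples, which share their ages and their scaling, so that r is a description only. For Ascl3 they were Nudt22 (r = 0.992), Tuba4a (0.990) and Scnn1b (0.988). For Foxi1 they were Tapbpl (r = 0.983), Ace (0.978) and the sodium pump subunit Atp1b1 (0.973). For Foxi2 they were Sp100 (r = 0.984), the sodium pump regulator Fxyd2 (0.982) and Tc2n (0.980). Tfcp2l1 was most like Myo5c (r = 0.983), Tapbp (0.982) and Arhgef28 (0.979), and Esrrg most like Pllp (0.993) and Ccdc129 (0.989). Among the factors themselves, r was highest between Ascl3 and Foxi2 (0.974) and between Ascl3 and Esrrg (0.973) and lowest between Tfcp2l1 and Esrrg (0.820). The choice of genes is not stable, since after rescaling 2 of the 3 genes were again among the nearest for Ascl3, Tfcp2l1 and Esrrg, 1 for Foxi1 and none for Foxi2, and with a pseudocount of 0.1 it was 2 for Tfcp2l1, 1 for Foxi2 and Esrrg and none for Ascl3 and Foxi1.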

How the data were processed

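Per the labels and the study's methods, the authors mapped single-end reads to mm9 with TopHat2 2.0.13 and Bowtie2 2.2.6, assigned them to genes with featureCounts and deposited 1 FPKM value per gene and sample. No strand setting is given in the sources used here. Median-of-ratios factors of 1.15 to 1.38 in embryonic, 1.03 to 1.09 in P5 and 0.617 to 0.714 in adult samples show FPKM scaled to the total of each sample. The deposited values thus do not carry the normalization between samples that the study names. Total reads were solved from the steps between low FPKM values, and the FPKM of the 6 factors then came out as whole reads in all samples. Because the files used here hold FPKM, no count model was fitted.

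Values were compared as log2(FPKM + 1) with limma 3.58.1 under R 4.3.3, using moderated statistics with a mean-variance trend. A gene entered the test if any sample reached 1 FPKM, which left 14650 genes. Stages (3 groups) and time points (6 groups) were fitted separately, each over all 13 samples. Calls needed the study's thresholds, an adjusted p below 0.1 and a change of 1 or more, up or down, on the log2 scale. The scripts were tested on simulated data. Tables used Python 3.11.15, numpy 2.4.6 and pandas 2.3.3. Positions are from the GENCODE vM1 annotation of mm9.

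The factors and the gene lists were chosen with earlier results of these data known. By rule, every factor was named, then of each other list the 2 calls of largest size in each direction from embryo to adult whose samples did not overlap, and the 3 genes most like each factor. A few genes that met this rule are not reported here. Replicates were separate samples of animals or pools, with 2 or 3 at each time point. The p-values between time points use the spread between replicates pooled over all 13 samples and moderated toward the trend over genes. They measure no wider spread than that of these samples. In the comparisons of stages, samples of different ages were grouped, so that the spread there also holds differences of age within the embryonic and adult stages. Same-numbered replicates deviated together no more than others (mean r of -0.016 over 30 pairs and 0.012 over 40 pairs), so the numbers were not taken as pairs. Alternatives were a pseudocount of 0.1, other filters, rescaling, a stricter adjusted p (0.05), a fit without the trend, a replicate block, only the groups compared, and each sample left out in turn.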

Additional observations from a re-analysis of the deposited data

Results flagged for a closer look

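Foxi2 in the adult was flagged because a single sample lay far from the rest. The level in 4wk replicate 2 was 2.18 FPKM, and the other 3 adult samples were at 1.57 to 1.66 FPKM, so that the gap took 0.861 of the range of the group. The value rests on 45 reads in one of the shallowest libraries. Groups of 4 to 10 samples were examined for the 6 factors, 12 in all, of which 1 was flagged, and chance flags about 1 in 20.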

How the results depend on the processing

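Signs changed in 5 of the results, none of them past the thresholds. Rescaling gave Tfcp2l1 0.27 from neonatal to adult and 0.33 from P5 to 4wk. Without E16.5 replicate 1, the step from E16.5 to E18.5 was -0.078 for Foxi1 and -0.086 for Tfcp2l1, and over all left-out samples it ranged up to 0.59 and 0.73. Without 12wk replicate 1 the step from 4wk to 12wk was 0.081 for Esrrg, in a range from -0.27. The cause was not tested. With a pseudocount of 0.1 the genes called numbered 5320 from neonatal to adult, 1183 from E14.5 to E16.5, 1163 from E18.5 to P5, 5767 from P5 to 4wk and 1658 from 4wk to 12wk, against 3385, 755, 738, 3556 and 755. Rescaled, they numbered 2137 from neonatal to adult (887 higher, 1250 lower), 4167 from embryo to adult (2020 higher, 2147 lower) and 2213 from P5 to 4wk (935 higher, 1278 lower), and the split moved from 339 higher and 3046 lower, 818 and 5567, and 321 and 3235. With only the 2 groups compared, 244 genes were called from 4wk to 12wk, where fewer samples estimate the spread. From neonatal to adult 1 factor, Esrrg, was called with a pseudocount of 0.1, without a filter, at an adjusted p below 0.05, and with both 4wk samples left out (an alternative chosen after seeing the data), and from E18.5 to P5 2 were called with a pseudocount of 0.1. Leaving out 1 sample in turn, the genes called ranged from 870 to 2189 between embryo and neonatal and from 617 to 1472 between 4wk and 12wk. The factors called ranged from 1 to 5 between embryo and neonatal, 0 to 2 between neonatal and adult, 0 to 4 from E14.5 to E16.5, 0 to 1 from E16.5 to E18.5 and 1 to 2 from P5 to 4wk. The 5 between embryo and neonatal count Foxi2, whose call carries no weight. They were reached without E18.5 replicate 1 or 2, where 741 and 748 of all tested genes were called higher. The 4 from E14.5 to E16.5 were reached, among others, without E14.5 replicate 2, where 638 genes were called higher. The lowest values in these comparisons and between neonatal and adult came from fits with 1 sample left at P5 or E16.5. With replicate number as a block, 4 factors were called from embryo to neonatal, 2 from neonatal to adult and 5 from embryo to adult. The last count includes Foxi2, whose call carries no weight. Of all 14650 tested genes, 474, 326 and 770 were called higher in these comparisons, and 3354 in either direction from neonatal to adult. With this block no count of calls moved by over 1.5 times. In 4 of 13 samples the most similar deviation at another time point had the same number. Depth limits Ascl3, Foxi2 and Esrrb, where 3 reads are worth 0.731 FPKM of Ascl3 in 4wk replicate 1, a floor that covers counting error only.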
